A study of Mus musculus with 32 samples.

Results

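The MHC class II genes are described here across the cells of mouse marrow stromal cultures. The 7 genes H2-Aa, H2-Ab1, H2-Eb1, H2-DMa, H2-DMb1, Cd74 and Ciita were chosen by symbol among the 31053 genes of the count tables, and all 7 are listed in every table. BMSC-OBs are bone marrow stromal cells of Diversity Outbred mice, a genetically mixed outbred stock, that were grown to confluence for 3 days and then kept in osteogenic medium for 10 days. Cells of 77 mice entered 16 pools of 4 or 5 mice each, every pool was made into a single droplet library, and each library was sequenced in 2 runs. Reads were aligned without accounting for genetic variants of the stock's founders, a limit that the authors say could affect mapping and expression values. Its part in differences of class II genes among pools was not tested. No treatment or genotype group divides the pools, and cells were not assigned to single mice here, so the comparisons are between cell classes within pools. A pool is therefore the replicate. The p-values of gene tests between classes rest on a spread among pools estimated partly from all genes, not from a single gene alone.

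MHC class II molecules present peptides from taken-up proteins to CD4+ T cells. The classical molecule I-A pairs an α chain from H2-Aa with a β chain from H2-Ab1, and H2-Eb1 encodes the β chain of I-E. Cd74 encodes the invariant chain that holds the peptide groove during transport, and H2-DMa and H2-DMb1 encode the DM molecule that exchanges the invariant chain remnant for peptide. Ciita encodes the transactivator that switches these genes on, without binding DNA itself, through the RFX, CREB and NF-Y factors on the X and Y boxes of their promoters. In marrow, B cells, dendritic cells and activated macrophages are the usual carriers of class II, and many other cells can be made to express it by interferon-γ.

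On GRCm38, with GENCODE M21 gene models, H2-DMa lies at chr17:34119541-34139101, H2-DMb1 at chr17:34153072-34160230, H2-Ab1 at chr17:34257689-34269419, H2-Aa at chr17:34282744-34287823 and H2-Eb1 at chr17:34305867-34316674, all on the forward strand except H2-Aa. Ciita lies at chr16:10480059-10528418 on the forward strand. H2-DMb1 has a near-identical neighbour, H2-DMb2, so its counts are uncertain. H2-Eb1, H2-DMa and Ciita each overlap 1 other counted gene on the opposite strand.

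The sequences that Ciita acts through are shown for the members whose promoter held both boxes. RefSeq promoter windows (GRCm38.p6, 250 bases before to 50 after the start) were at hand for 4 of the 7 members. A core X-box motif, GNAACT, and a Y-box motif, TGATTGG, were searched on both strands; the motifs do not overlap each other. Over 32851 promoter windows, 42.8% held GNAACT, 7.82% held TGATTGG and 0.304% held GNAACT followed by TGATTGG with 5 to 40 bases between them. H2-Aa, H2-Eb1 and H2-DMb1 held the pair, and neither of the windows of H2-DMa did. The 150 bases before the RefSeq start are printed 5′ to 3′ on the strand of the gene, with the letters of the pair in capitals and any other match of a single motif, on either strand, left in lower case. The windows are chr17:34287824-34287973 (reverse strand) for H2-Aa, chr17:34305717-34305866 (forward) for H2-Eb1 and chr17:34153041-34153190 (forward) for H2-DMb1. The GENCODE start of H2-DMb1 given above falls inside its window, since the RefSeq start lies further downstream.
H2-Aa: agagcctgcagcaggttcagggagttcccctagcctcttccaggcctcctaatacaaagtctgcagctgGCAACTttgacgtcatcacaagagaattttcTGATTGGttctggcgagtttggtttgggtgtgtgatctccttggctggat
H2-Eb1: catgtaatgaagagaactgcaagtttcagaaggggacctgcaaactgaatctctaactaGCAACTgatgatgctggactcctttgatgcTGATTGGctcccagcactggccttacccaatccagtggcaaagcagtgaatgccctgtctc
H2-DMb1: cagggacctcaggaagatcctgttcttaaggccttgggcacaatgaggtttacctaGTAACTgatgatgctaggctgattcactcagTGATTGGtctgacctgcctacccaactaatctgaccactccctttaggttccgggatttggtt
The motifs were 25 bases apart in H2-Aa and H2-DMb1 and 24 in H2-Eb1. A match of letters is a description of the sequence, and binding was not measured.

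Of 107853 barcodes in the run used here, 105910 (98.2%) were also in the other run, so the runs are repeat readings of the same droplets and a single run was counted. The pools held 53990642 to 100777353 UMIs. After filters and removal of 5003 doublets, 83906 cells remained, and 55272 of them (65.9%) fell into a class gated on marker genes; no class II gene was part of a gate. Levels are UMIs of a gene per 10,000 UMIs of a class in a pool, and a pool entered only with at least 20 cells of the class. Transcripts are counted at their 3′ end, so no level was divided by gene length. These limits left 8993 macrophages in 16 pools, 42934 mesenchymal cells in 16 pools, 797 monocyte-derived cells in 8 pools (of 831 in all, 304 of them in pool 8) and 195 B-lineage cells in 4 pools (of 285).

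The classes carried their own markers, which were not exclusive to them. The macrophage list (C1q genes, Adgre1, Mrc1, Ms4a7 and Cd68) summed to 66.9 to 94.7 per 10,000 in macrophages, to 24.1 to 118 in monocyte-derived cells and to 0.109 to 0.448 in mesenchymal cells. The monocyte-derived list (Ear2, Ccr2, Clec10a, Mgl2, Cd209a, Plac8, Ly6c2 and Ms4a4c) summed to 20.3 to 35.1 in its own class, to 0.134 to 1.02 in macrophages, to 8.81 to 19.9 in granulocytes and to 2.39 to 16.3 in B-lineage cells. F13a1 had been on that list and was taken out after the marker sums had been seen. With it in the gates, 2456 cells in 16 pools fell into the monocyte-derived class and 3821 into the macrophage class; some values with it are given beside the results of both classes. The dendritic cell list (Flt3, Zbtb46, Xcr1, Clec9a, Ccr7 and Siglech) summed to at most 0.0392 in macrophages and to between 0 and 1.43 in monocyte-derived cells. Of the 285 B-lineage cells, 175 carried plasma cell markers only and 107 carried plasma and mature B cell markers, so B-lineage here means antibody-secreting cells for the most part.

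**Figure D1:**
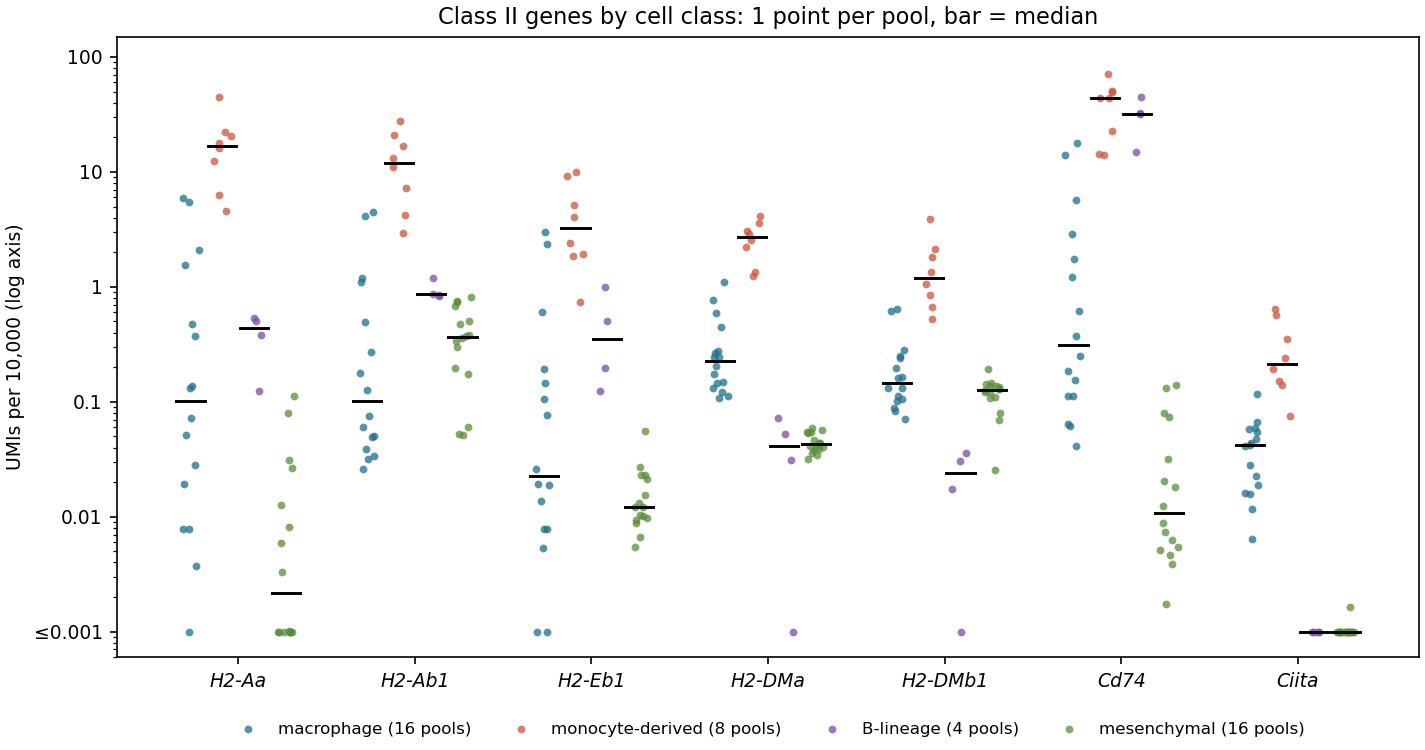
UMIs per 10,000 of each class II gene (log axis) in macrophages (16 pools), monocyte-derived cells (8), B-lineage cells (4) and mesenchymal cells (16); each point is a pool, bars are medians, and levels at or under 0.001 are drawn at 0.001. Monocyte-derived cells had the highest median for each of the 7 genes, B-lineage cells overlapped them for Cd74 and H2-Eb1, and H2-Ab1 was the highest class II gene of mesenchymal cells by its median.

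Monocyte-derived cells held the highest levels of the chain genes. H2-Aa was at 4.57 UMIs per 10,000 in pool 7, 16.9 at the median and 44.7 in pool 8 (18.1 ± 12.5, mean ± SD, n = 8). H2-Ab1 was at 2.93 in pool 7, 12.0 at the median and 27.9 in pool 8 (13.0 ± 8.58, n = 8). Cd74 was at 14.1 in pool 14, 44.0 at the median and 71.4 in pool 8 (38.8 ± 20.2, n = 8). Pools 7, 9 and 14 were low and pool 8 was high for all 3 genes, and every monocyte-derived pool stood above every mesenchymal pool. H2-Eb1 had another order, with 0.743 in pool 8, 3.23 at the median and 10.1 in pool 6 (4.42 ± 3.50, n = 8), so that the pool with most H2-Aa had the least H2-Eb1. The gate with F13a1 gave means over 16 pools of 6.32 for H2-Aa, 4.42 for H2-Ab1, 1.73 for H2-Eb1 and 14.5 for Cd74. The lowest monocyte-derived pool was then at 0 for H2-Aa and H2-Ab1, so it no longer stood above every mesenchymal pool. The Cd74 median was then 6.75, below that of B-lineage cells (32.1 in 4 pools).

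The genes of the loading machinery and the transactivator were lower in the same cells. H2-DMa was at 1.23 in pool 7, 2.70 at the median and 4.18 in pool 8, and H2-DMb1 at 0.523 in pool 9, 1.20 at the median and 3.92 in pool 8. Ciita, the regulator, was at 0.0747 in pool 14, 0.215 at the median and 0.645 in pool 8. The gate with F13a1 gave means over 16 pools of 1.05 for H2-DMa, 0.672 for H2-DMb1 and 0.117 for Ciita, in place of 2.63, 1.54 and 0.296. With the gate used here, Ciita was the lowest of the 7 genes in 7 of the 8 pools, and Cd74 was the highest in all 8.

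Against the mesenchymal cells of the same 8 pools, all 7 genes were higher in monocyte-derived cells (edgeR quasi-likelihood test blocked on pool, adjusted p by Benjamini-Hochberg), where 21.3% of the 12430 genes tested were called higher. The log2 fold change was 9.24 (SE 0.44) for H2-Aa and 9.27 (SE 0.33) for Cd74, with adjusted p = 4.3e-13 and 5.9e-15. It was 4.60 (SE 0.40, adjusted p = 3.8e-09) for H2-Ab1, 7.30 (SE 0.35) for H2-Eb1, 5.52 (SE 0.22) for H2-DMa, 3.22 (SE 0.26) for H2-DMb1 and 9.12 (SE 0.43) for Ciita. Ciita, at most 0.00163 in a mesenchymal pool, passed the filter on low counts only through the monocyte-derived cells. Its direction was thus set beforehand, and the size of its fold change rests on few mesenchymal UMIs. Each gene was higher in 8 of 8 pools, with no overlap of the classes. With F13a1 in the gate, 16 pools entered, and the log2 fold changes were 8.93 for H2-Aa, 2.67 for H2-Ab1 and 8.45 for Cd74, all still called, where 33.9% of genes were called higher. The classes then overlapped for every gene except H2-DMa. The lowest monocyte-derived pool was at 0 for H2-Aa, H2-Ab1, H2-Eb1, H2-DMb1 and Ciita, and at 0.102 for Cd74. Over 11 alternative settings, all of which kept the calls, H2-Eb1 ran from 6.05 to 7.70, H2-DMa from 4.25 to 5.95 and H2-DMb1 from 2.22 to 3.88.

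Against macrophages of the same pools, all 7 genes were again higher in monocyte-derived cells, by edgeR, against 6.5% of 8661 genes called higher. The log2 fold changes were 4.12 (SE 0.53, adjusted p = 0.00010) for H2-Aa, 3.91 (SE 0.52) for H2-Ab1, 3.47 (SE 0.42) for H2-Eb1 and 3.77 (SE 0.49) for Cd74. They were smaller for the other genes, at 2.72 (SE 0.20) for H2-DMa, 2.43 (SE 0.24) for H2-DMb1 and 2.30 (SE 0.31, adjusted p = 0.00014) for Ciita. Each gene was higher in 8 of 8 pools, but the ranges over pools overlapped for every gene except H2-DMa, since the macrophages of pool 5 were above the lowest monocyte-derived pool. With F13a1 in the gate, 6 of the genes could be tested over 16 pools and were called higher, where 27% of genes were, with log2 fold changes of 4.05 for H2-Aa and 1.83 for H2-DMb1. Median depth, as the median over pools, was 5768.5 UMIs per cell in monocyte-derived cells and 4456.5 in macrophages.

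The share of cells with a UMI followed the same order. After thinning to 2000 UMIs, 64.4% of monocyte-derived cells held Cd74, 46.4% H2-Aa, 43.9% H2-Ab1 and 5.55% Ciita (72.3%, 50.7%, 53.2% and 13.0% without thinning). In macrophages these thinned shares were 7.59%, 4.35%, 4.94% and 0.708%, and in granulocytes, which should lack class II, 1.84%, 0.853%, 1.44% and 0.0284%. Macrophages were thus above granulocytes on average for each gene, with an SD over pools above the mean except for Ciita (SD 0.527). Under the gates with F13a1, Cd74 was held by 29.0% of monocyte-derived cells and 4.48% of macrophages, and H2-Aa by 18.6% and 2.73%.

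Within the monocyte-derived class, cells low and high in the macrophage list both held class II transcripts. H2-Aa averaged 18.0 ± 6.50 (n = 4 pools) in the low cells and 19.0 ± 16.9 (n = 6) in the high cells, and Cd74 averaged 39.1 ± 15.6 and 41.2 ± 25.9. Pools 6, 8 and 18 had both sets, and H2-Aa in the low and the high cells was at 27.4 and 18.8 in pool 6, 12.8 and 49.8 in pool 8, and 15.2 and 21.2 in pool 18. Cd74 was at 59.2 and 45.2 in pool 6, 24.05 and 79.0 in pool 8, and 43.2 and 51.5 in pool 18. The high cells were thus above the low cells in 2 of 3 pools for both genes. Where F13a1 was kept in the gate, H2-Aa averaged 15.5 ± 7.59 (n = 8) in the low cells and 5.58 ± 10.7 (n = 15) in the high cells. The difference was not tested, and pools differ between both sets.

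**Figure D2:**
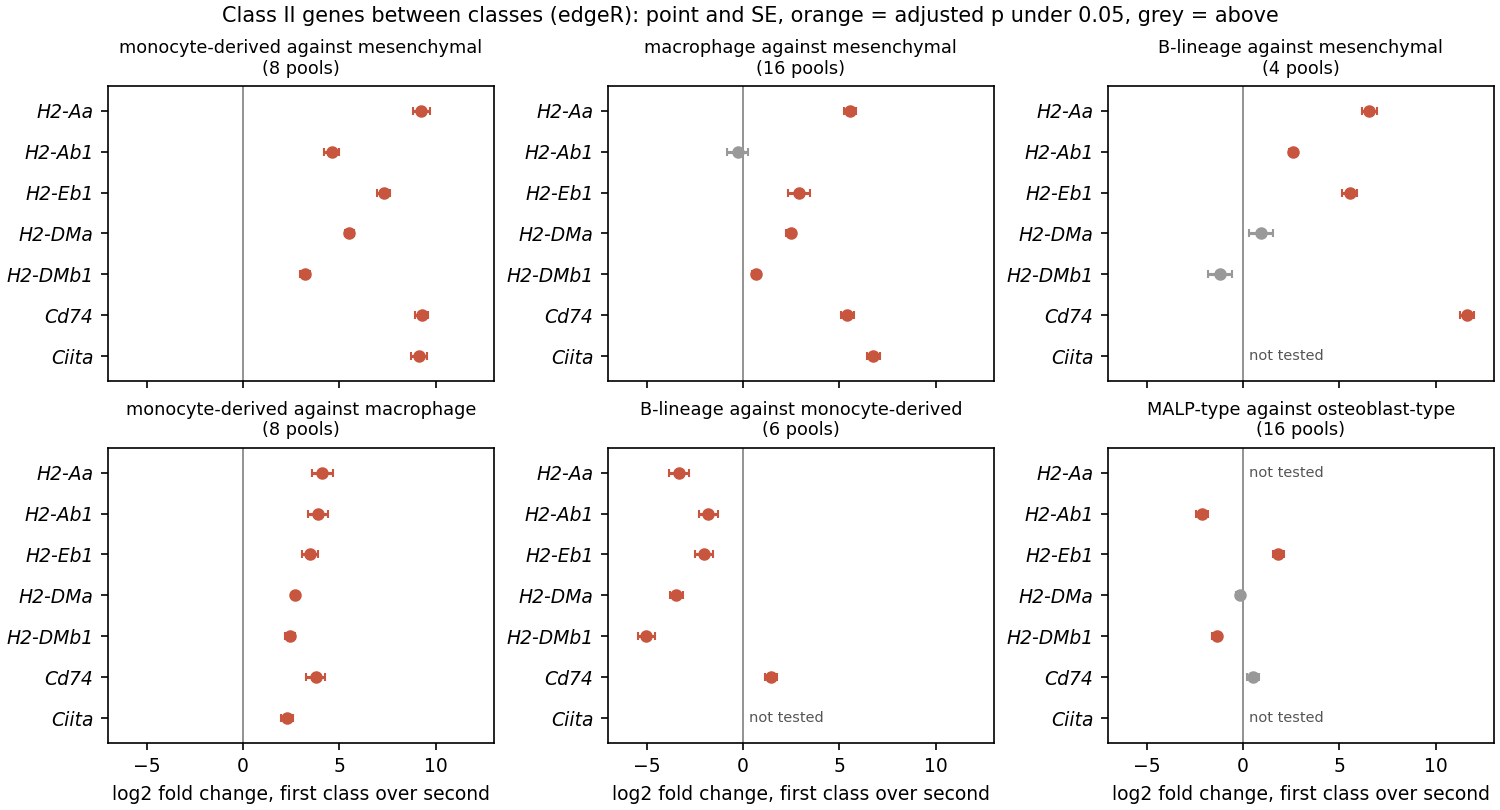
Log2 fold changes with SE (edgeR, pool as a block) for the 7 genes in 6 comparisons; orange points passed an adjusted p of 0.05, grey points did not, and genes that failed the filter on low counts are marked as not tested. All 7 genes lie above 0 in monocyte-derived cells against either mesenchymal cells or macrophages, while H2-Ab1 lies at -0.28 for macrophages against mesenchymal cells.

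Macrophages were low in class II in most pools and high in a few. H2-Aa was at 0 in pool 13, 0.102 UMIs per 10,000 at the median and 5.94 in pool 5 (1.02 ± 1.93, n = 16). Cd74 was at 0.0413 in pool 1, 0.310 at the median and 17.9 in pool 5 (2.85 ± 5.39, n = 16), and H2-Ab1 at 0.0259 in pool 10, 0.101 at the median and 4.52 in pool 5. Pools 5 and 6 stood far above the others for all of these, followed by pool 18 and pool 8. Without pools 5 and 6 the means fell to 0.353 for H2-Aa, 0.267 for H2-Ab1, 0.0877 for H2-Eb1 (from 0.413) and 0.969 for Cd74. The gates with F13a1 gave means over 16 pools of 0.543 for H2-Aa, 0.462 for H2-Ab1, 0.197 for H2-Eb1 (in place of 0.413) and 1.45 for Cd74.

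The level came from few cells. Of 8993 macrophages, 353 (3.93%) held at least 10 UMIs per 10,000 of H2-Aa, H2-Ab1, H2-Eb1 and Cd74 together, and 170 cells lay between 5 and 20. The share was 22.4% in pool 5, 26.5% in pool 6, 7.16% in pool 18, 4.05% in pool 8 and 0% in pool 13. A UMI of none of the 4 genes was found in 86.9% of the macrophages, and the 10% of cells with most held 98.7% of these UMIs. In monocyte-derived cells, all pools together, the share with at least 10 was 66.7%, from 27.0% in pool 9 to 95.4% in pool 8. Under the gates with F13a1, they were 1.91% of macrophages, at most 13.7% in a pool, and 40.7% of monocyte-derived cells, from 0% to 78.4%. The monocyte-derived list summed to 1.02 in macrophages of pool 6 and 0.798 in those of pool 5, the upper end of its range over pools; its part in the result was not tested.

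**Figure D3:**
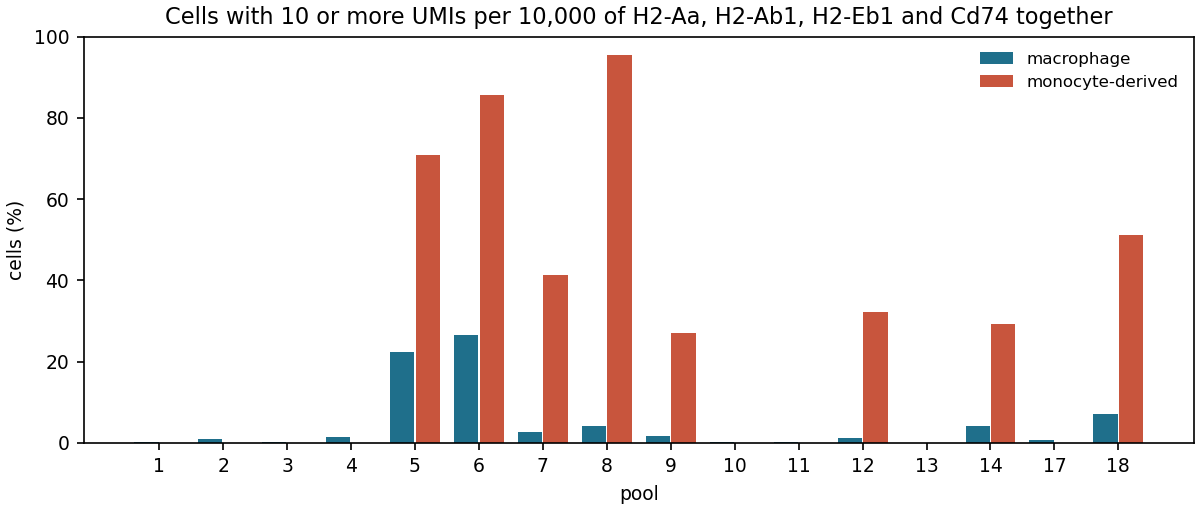
Percent of macrophages and of monocyte-derived cells with at least 10 UMIs per 10,000 of H2-Aa, H2-Ab1, H2-Eb1 and Cd74 together, by pool; a pool with fewer than 20 cells of a class has no bar for it. Macrophages reached 22.4% and 26.5% in pools 5 and 6 and stayed under 10% elsewhere, while monocyte-derived cells lay between 27.0% and 95.4%.

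Against mesenchymal cells, 6 of the 7 genes were higher in macrophages by edgeR over 16 pools, where 38.5% of 13011 genes were called higher. The log2 fold change was 6.75 (SE 0.33, adjusted p = 5.5e-15) for Ciita, 5.55 (SE 0.33) for H2-Aa, 5.41 (SE 0.34) for Cd74, 2.91 (SE 0.59) for H2-Eb1 and 2.46 (SE 0.23) for H2-DMa. H2-Eb1 was higher in macrophages in 11 of 16 pools and lower in 5, with overlapping ranges and medians of 0.0228 against 0.0121. Its call held in all 11 alternative settings, but the size of its fold change varied with the setting. Ciita was at 0.00646 in pool 1, 0.0418 at the median and 0.117 in pool 5 in macrophages, all above the highest mesenchymal pool (0.00163). It passed the filter on low counts only through the macrophages, so its direction was set beforehand. The size of its fold change rests on few mesenchymal UMIs. H2-Aa, at a mesenchymal median of 0.00216, also passed mainly through the macrophages, so its direction was largely set beforehand. H2-DMb1 was higher by 0.67 (SE 0.22, adjusted p = 0.0079), and this call was lost without pools 5 and 6 (0.39, adjusted p = 0.066), with DESeq2 (0.44, adjusted p = 0.061) and with F13a1 in the gates (0.40, adjusted p = 0.090), where 35.2% of genes were called higher. H2-Ab1 was not called, at -0.28 (SE 0.52, adjusted p = 0.62), and was higher in macrophages in 5 of 16 pools; DESeq2 called it lower, at -0.999 (adjusted p = 0.049), where edgeR called 46.8% of genes lower. Without the replicate block the edgeR value turned to 0.88 (adjusted p = 0.18).

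The mesenchymal level of H2-Ab1 set it apart from its partner chain. In mesenchymal cells H2-Ab1 was at 0.0519 in pool 18, 0.367 UMIs per 10,000 at the median and 0.812 in pool 13 (0.390 ± 0.254, n = 16), with pools 17 and 6 also high and pools 2 and 10 low. H2-Aa, which encodes the α chain that the product pairs with, was at 0.00018 in pool 3, 0.00216 at the median and 0.112 in pool 6 (0.0178 ± 0.0326, n = 16). H2-Ab1 was above H2-Aa in 16 of 16 pools and was the highest of the 7 genes in 14. H2-DMb1 followed, at 0.0253 in pool 2, 0.127 at the median and 0.194 in pool 17, while Cd74 was at 0.00173 in pool 1, 0.0107 at the median and 0.139 in pool 8. Ciita gave 23 UMIs in 42934 cells.

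Mesenchymal cells, 42934 of the 83906 kept cells, gave the largest share of H2-Ab1 UMIs among the classes. They held 53.6% of the 54922 UMIs of H2-Ab1 in kept cells, against 16.9% in monocyte-derived cells, 6.10% in macrophages and 22.0% in cells of no class. H2-DMb1 had a like division, with 64.7% of 13915 UMIs in mesenchymal cells. Median depth was 15928 UMIs in mesenchymal cells, 5768.5 in monocyte-derived cells and 4456.5 in macrophages. Mesenchymal cells thus held most UMIs of the gated cells, and these shares reflect cell number and depth as well as level. For H2-Aa the mesenchymal share was 4.07% of 31524 UMIs and the monocyte-derived share 44.4%, and for Cd74 the shares were 3.06% and 34.2% of 80459 UMIs. Cells of no class held 36.4% of the H2-Aa and 33.7% of the Cd74 UMIs. For H2-Eb1 they held 42.2% of 9425 UMIs, more than monocyte-derived cells (23.8%), so the gated classes do not account for all class II transcripts. No class was gated on the dendritic cell list.

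The ratio of H2-Ab1 to H2-Aa UMIs lay in a narrow range where both genes were high. In monocyte-derived cells it was 0.585 in pool 9, 0.673 at the median and 1.01 in pool 12, with 9180 to 13873 UMIs in all. In mesenchymal cells it was 22.9 over all pools (29426 to 1284 UMIs), from 1.96 in pool 18 (161 to 82) to 729 in pool 17 (4373 to 6) among the pools with enough H2-Aa UMIs for a ratio. The log2 ratio, with 0.5 added to each count, was higher in mesenchymal than in monocyte-derived cells by 4.69 ± 1.91 (SD) in 8 of 8 pools (exact sign-flip permutation test, two-sided p = 0.0078, the smallest it can give; adjusted over 4 pairs of classes p = 0.010). It was higher than in macrophages by 5.74 ± 1.95 in 16 of 16 pools (exact p = 3.1e-05, adjusted p = 0.00012). In granulocytes the ratio was 1.38 (73 to 53 UMIs), and its difference from monocyte-derived cells, 0.94 ± 1.85 on the log2 scale and positive in 6 of 8 pools, did not pass (exact p = 0.20). A single granulocyte of pool 18 held 21 of these H2-Aa UMIs. Pools 5, 7, 9 and 12 had at most 2 UMIs of either gene in granulocytes, so the added 0.5 weighs on their ratios. Under the gates with F13a1, the differences of mesenchymal cells were 6.52 ± 2.56 from monocyte-derived cells and 5.38 ± 1.99 from macrophages, in 16 of 16 pools each (exact sign-flip permutation test, unadjusted p = 3.1e-05 for both).

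**Figure D4:**
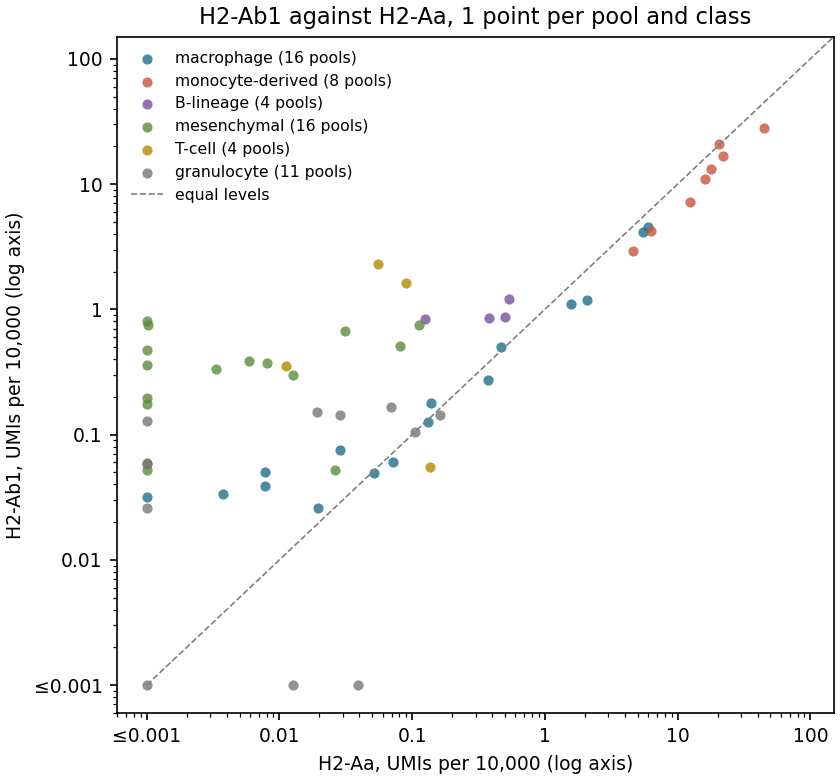
H2-Ab1 against H2-Aa in UMIs per 10,000 (both axes log), with a point for each pool and class and a dashed line at equal levels; levels at or under 0.001 are drawn at 0.001. Monocyte-derived pools lie along the line, and all 16 mesenchymal pools lie above it.

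The shares of mesenchymal cells with a UMI were set beside those of granulocytes, which should lack class II. Thinning evens the depth of cells but not the part of free RNA in them. The part of free RNA from other cells was therefore not tested. After thinning each cell to 2000 UMIs, 6.65% ± 4.08 of mesenchymal cells held an H2-Ab1 UMI (1.02% to 13.2% over 16 pools; 26.7% without thinning), against 1.44% of granulocytes (3.68% without thinning). The mean thinned mesenchymal shares for H2-Aa (0.422%, at most 2.35% in a pool), Cd74 (0.830%, at most 2.97%) and H2-DMa (0.921%) were below those of granulocytes in 11 pools (0.853%, at most 2.82%; 1.84%, at most 6.72%; and 2.95%). Without thinning the mesenchymal shares were 2.60%, 4.88% and 7.12%, and those of granulocytes 1.58%, 4.80% and 7.91%, so that for H2-Aa and Cd74 the order depended on thinning. MALP-type mesenchymal cells, which carry markers of adipogenic progenitors, were higher in pool 8 after thinning, at 10.9% for H2-Aa and 13.4% for Cd74. None of these shares was tested. For H2-DMb1 the thinned shares were 2.20% in mesenchymal cells and 1.21% in granulocytes. Median depth was 15928 UMIs per cell in mesenchymal cells and 4055 in granulocytes. At least 2 H2-Ab1 UMIs were found in 6316 mesenchymal cells (14.7%). Of the 11681 mesenchymal cells with an H2-Ab1 UMI, 4.41% also had H2-Aa, against 93.1% of 536 monocyte-derived cells and 52.1% of 609 macrophages.

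The mesenchymal levels of Cd74 and H2-Aa moved with the leukocyte UMIs of the same gene in the same pool, and that of H2-Ab1 did not do so measurably. Leukocyte UMIs were those of all gated leukocytes per 10,000 UMIs of the whole pool, a measure that joins the number of leukocytes and their level. Over 16 pools, this measure and the mesenchymal level had, for Cd74, r = 0.931 and rho = 0.879 (permutation p = 1e-05, the smallest the permutations can give; adjusted over 29 relations p = 5.8e-05), and r = 0.945 without pools 6 and 8, those farthest from the median. For H2-Aa r was 0.741 and rho 0.891 (adjusted permutation p = 0.032 and 0.00023), and r = 0.952 without these pools. For H2-Ab1 r was 0.217 and rho 0.109 (permutation p = 0.46), and r = -0.031 without pools 6 and 8. For H2-Eb1 r passed (0.768, adjusted permutation p = 0.0059) and rho did not (0.538, adjusted p = 0.062), and r was 0.477 without pools 5 and 6. The relation did not pass for H2-DMa (r = 0.414), H2-DMb1 (r = 0.030) or Ciita (r = 0.784, rho = 0.162, adjusted permutation p = 0.057 for r). Within mesenchymal cells, H2-Ab1 went with H2-DMb1 (r = 0.732, rho = 0.771, adjusted permutation p = 0.0020 and 0.0023; r = 0.802 without pools 6 and 13). With Ciita, at 23 UMIs in all, rho passed (0.605, adjusted permutation p = 0.034) and r did not (0.490, adjusted p = 0.075). Its relation with H2-Aa (r = 0.387, rho = 0.353, adjusted permutation p = 0.20) and with Cd74 (r = 0.305, rho = 0.279, adjusted permutation p = 0.34) did not pass, nor did that with H2-Eb1 (r = 0.212) or H2-DMa (r = -0.304).

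**Figure D5:**
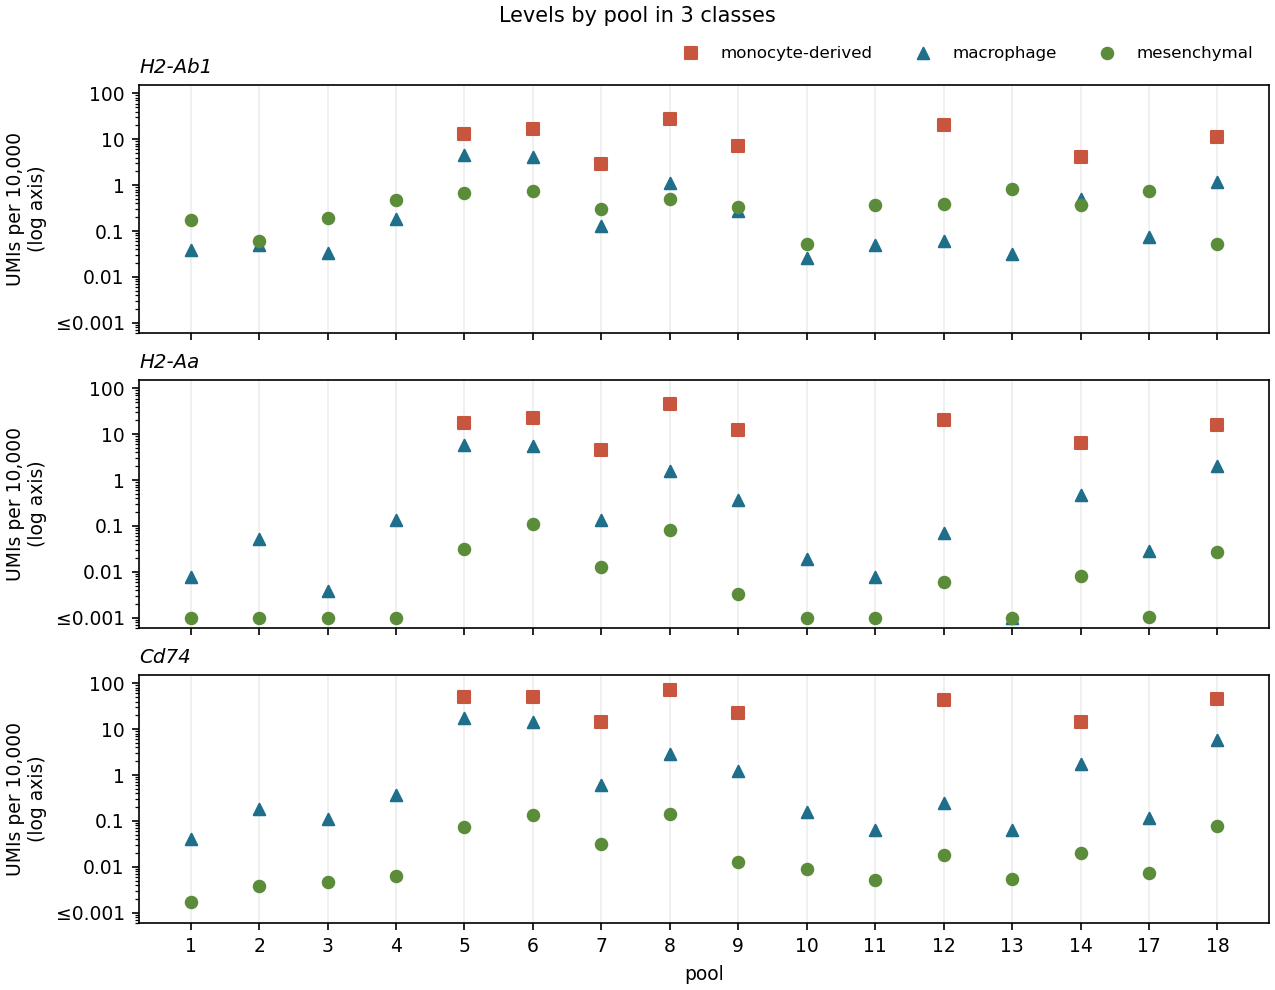
UMIs per 10,000 (log axis) of H2-Ab1, H2-Aa and Cd74 by pool in monocyte-derived cells, macrophages and mesenchymal cells; levels at or under 0.001 are drawn at 0.001. H2-Aa and Cd74 keep the order monocyte-derived, macrophage, mesenchymal in each pool with all 3 classes, while mesenchymal H2-Ab1 lies above that of macrophages in 11 of 16 pools.

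Among mesenchymal cells, the osteoblast-type (Bglap, Ibsp and Alpl) and the MALP-type, which carries the markers of marrow adipogenic lineage progenitors (Adipoq, Lpl, Cxcl12 and Lepr), differed in these genes. H2-Ab1 was at 0.0364, 0.400 at the median and 1.06 in osteoblast-type cells and at 0.0322, 0.100 at the median and 0.728 in MALP-type cells over the same 16 pools. It was lower in the MALP-type by 2.12 on the log2 scale (log2 fold change -2.12, SE 0.30, edgeR adjusted p = 1.4e-06) in 15 of 16 pools, against 39.2% of 12254 genes called lower. H2-DMb1 was also lower (-1.36, SE 0.24, adjusted p = 2.3e-05; 12 of 16 pools), and H2-Eb1 was higher (1.82, SE 0.28, adjusted p = 4.8e-06; 16 of 16 pools), against 41.7% of genes called higher. Without TMM scaling, which moved the median of all genes from 0.02 to 0.71, these calls stood at -1.43, -0.67 and 2.50.

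The other genes gave no stable difference between these cells. H2-DMa was at -0.18 (SE 0.17, adjusted p = 0.33), but at 0.51 (adjusted p = 0.0068) without TMM and at -0.37 (adjusted p = 0.0045) without pool 8. Cd74 was at 0.50 (SE 0.31, adjusted p = 0.14) and at 1.20 (adjusted p = 0.00090) without TMM. In pool 8, where monocyte-derived cells were most numerous, MALP-type cells held 0.627 H2-Aa and 0.913 Cd74 UMIs per 10,000, the highest of the 16 pools. H2-Ab1 in contractile-type cells (Acta2, Tagln) averaged 0.438 ± 0.323, and in osteoblast-type cells 0.437 ± 0.314; this difference was not tested.

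B-lineage cells carried the invariant chain with little of the chains it serves. Cd74 was at 45.0, 14.96, 31.9 and 32.4 UMIs per 10,000 in pools 4, 6, 10 and 12 (31.0 ± 12.3, n = 4). H2-Ab1 was at 0.845, 0.873, 1.20 and 0.841 in the same pools, and H2-Aa at 0.377, 0.504, 0.538 and 0.125. Cd74 lay within the monocyte-derived range in all 4 pools, while both chains lay below the lowest monocyte-derived pool. The Cd74 to H2-Aa ratio was 29.7 to 260 in B-lineage cells and 1.60 to 3.13 in monocyte-derived cells. After thinning, 94.6% of B-lineage cells held a Cd74 UMI and 14.9% an H2-Ab1 UMI (99.3% and 53.7% without thinning, at a median depth of 11068 UMIs). Ciita was not detected, with 0 of 2426410 UMIs in 195 cells, which allows up to 0.0124 per 10,000 and 1.54% of cells with a UMI, for counting error only.

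The edgeR comparison with mesenchymal cells of the 4 pools called Cd74 (log2 fold change 11.60, SE 0.36), H2-Aa (6.56, SE 0.39), H2-Eb1 (5.52, SE 0.37) and H2-Ab1 (2.60, SE 0.21, adjusted p = 2.2e-33) higher, where 13.6% of 13169 genes were called higher and 23.8% lower. H2-DMa (0.94, SE 0.61, adjusted p = 0.23) and H2-DMb1 (-1.21, SE 0.62, adjusted p = 0.11) were not called, and Ciita could not be tested. H2-Aa passed the filter on low counts through the B-lineage cells, so its direction was largely set beforehand. It had 2 and 1 UMIs in mesenchymal cells of pools 4 and 10, so the size of its fold change rests partly on few UMIs. The small adjusted p of H2-Ab1 rests on a variance shared over genes and does not measure its own spread over 4 pools. H2-Ab1 was at 0.841 to 1.20 in B-lineage cells and at 0.0520 to 0.746 in mesenchymal cells of these pools, and higher in 4 of 4. Immunoglobulin genes took 46.2% to 62.3% of the UMIs of B-lineage cells in these pools and at most 0.0347% of those of mesenchymal cells. Scaling to the library size without TMM moved the median of all genes from -0.33 to -1.35, with H2-Ab1 then at 1.57, Cd74 at 10.71, H2-DMa at -0.11 and H2-DMb1 called lower at -2.28 (adjusted p = 0.00062). The calls higher and lower were 1797 and 3128 with TMM, and 731 and 7562 without.

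Against monocyte-derived cells, in 6 pools with at least 10 cells of both classes, H2-Aa (-3.31, SE 0.53), H2-Ab1 (-1.79, SE 0.49), H2-Eb1 (-2.02, SE 0.46), H2-DMa (-3.45, SE 0.33) and H2-DMb1 (-5.02, SE 0.44) were lower in B-lineage cells, in 6 of 6 pools each, where 35.2% of 2179 genes were called lower by edgeR. H2-DMa and H2-DMb1 were at most 0.211 and 0.0308 in a B-lineage pool and passed the filter on low counts only through the monocyte-derived cells. Their direction was thus set beforehand. With F13a1 in the gate the pools changed too, to pools 4, 6, 10 and 12 with at least 20 cells, in place of pools 6, 7, 9, 12, 14 and 17, and the 2 changes cannot be told apart. The call then held for H2-DMa only among the 4 of these genes that could be tested; H2-Aa was then at -1.05 (adjusted p = 0.46), H2-Ab1 at 0.31 (adjusted p = 0.80) and H2-Eb1 at 0.36 (adjusted p = 0.82), where 27.3% of genes were called lower. Cd74 was higher by 1.47 (SE 0.32, adjusted p = 0.0014), in 4 of 6 pools, where 27.4% of genes were called higher. Under the gate with F13a1, Cd74 was higher by 4.47 (adjusted p = 0.010) over the 4 pools, where 22.9% of genes were called higher. The call for Cd74 was lost without TMM (0.20, adjusted p = 0.58), which left 119 genes higher and 1712 lower in place of 598 and 767, and with marker sums set 2 times as high (0.80, adjusted p = 0.14).

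T cells and macrophage states varied in the same genes. In T cells of pools 5, 6, 8 and 14, H2-Ab1 was at 1.62, 2.32, 0.0547 and 0.350 UMIs per 10,000, and H2-Aa averaged 0.0734, with 237 to 12 UMIs in all. An H2-Ab1 UMI was found in 18.2% ± 21.05 of thinned T cells, from 1.54% in pool 8 to 47.5% in pool 6, against 1.44% of granulocytes, so that pool 8 was near the granulocyte level. Resident-type macrophages (Stab1, Cbr2, Folr2) averaged 0.338 for H2-Aa and 1.15 for Cd74 in 14 pools, and lipid-type macrophages (Gpnmb, Trem2, Fabp5) 0.669 and 1.45. The medians had the opposite order, at 0.0869 and 0.521 in the resident-type against 0.0304 and 0.0527 in the lipid-type, and Cd74 was higher in the resident-type in 11 of 14 pools. No member passed the filter on low counts. With no filter, edgeR called H2-Aa (log2 fold change -0.61, SE 0.18, adjusted p = 0.0049) and H2-Eb1 (-1.0004, SE 0.26, adjusted p = 0.00078) lower in the resident-type, where 10.4% of 16412 genes were called lower, and H2-DMa (0.61, SE 0.20, adjusted p = 0.010) higher, where 13.8% were called higher. H2-Aa was lower in 4 and higher in 5 of the 14 pools, and H2-Eb1 lower in 6 and higher in 3. The other 4 genes were not called, with Cd74 at 0.45 (adjusted p = 0.50). Cycling macrophages averaged 1.06 ± 2.07 for H2-Aa (n = 14) and those without cycle markers 1.12 ± 2.05 (n = 16).

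Across pools, the class II genes of macrophages went together. With H2-Aa, r over 16 pools was 0.997 for H2-Ab1, 0.978 for H2-Eb1, 0.959 for H2-DMa, 0.973 for H2-DMb1 and 0.994 for Cd74, and rho was 0.947, 0.874, 0.912, 0.847 and 0.968. The adjusted permutation p was 0.000145 for the r of H2-Eb1 and 5.8e-05 for the others, from the smallest p the permutations can give, and at most 0.00033 for rho. Pools 5 and 6 stood apart from the other 14. Without these 2 pools, r was 0.985, 0.851, 0.929, 0.770 and 0.974 in the same order. Ciita followed less closely (r = 0.758, rho = 0.809, adjusted permutation p = 0.0029; r = 0.583 without pools 5 and 6). In monocyte-derived cells (8 pools, exact permutation test) H2-Aa went with H2-Ab1 (r = 0.947, rho = 0.976, adjusted p = 0.00041 for r), Cd74 (r = 0.924, rho = 0.905, adjusted p = 0.0013) and H2-DMa (r = 0.865, rho = 0.833, adjusted p = 0.0056). For H2-DMb1 r passed (0.914, exact permutation test, adjusted p = 0.012) and rho did not (0.786, adjusted p = 0.054). Without pools 7 and 8, r was 0.930, 0.922, 0.742 and 0.669 for these 4 genes.

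H2-Eb1 did not follow H2-Aa among monocyte-derived pools, at r = -0.087 and rho = -0.048 with H2-Aa (exact permutation p = 0.84 for r; r = 0.552 without pools 7 and 8). Ciita did not pass either (r = 0.685, rho = 0.643, exact permutation test, adjusted p = 0.093 for r; r = 0.164 without pools 7 and 8). The H2-Eb1 to H2-Aa ratio was 0.0166 in pool 8, 0.322 at the median and 0.530 in pool 7. The H2-Eb1 level of monocyte-derived cells went instead with that of the macrophages of the same pool (r = 0.936, rho = 0.810 over 8 pools, exact permutation p = 0.0053, adjusted p = 0.012 for r and 0.045 for rho; r = 0.754 without pools 5 and 6). The same relation did not pass for H2-Aa (r = 0.232), H2-Ab1 (r = 0.216) or Cd74 (r = 0.430). With F13a1 in the gate and 16 pools, all 3 passed, at r = 0.812, 0.787 and 0.784. The part of founder variants, which alignment did not account for, in the H2-Eb1 levels of pools was not tested.

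Other genes of the class II pathway were called higher more often than lower in both myeloid classes against mesenchymal cells, and their calls between monocyte-derived cells and macrophages depended on the gate. The pathway list held 22 genes (cofactors, cathepsins, legumain, costimulators and the E3 ligase March1), of which 18 were in the tables. Against mesenchymal cells, 11 of the 15 tested were higher in macrophages and 2 lower, with a median of 1.75 (all genes -0.13), where 38.5% of all genes were called higher and 46.8% lower. Rfxap and Nfyb were the lower ones, and Rfxank and Nfyc were not called. In monocyte-derived cells 10 of 15 were higher and Rfxap lower, against 21.3% and 43.8% of all genes. Under the gates with F13a1 the counts were 8 of 14 higher and 1 lower in macrophages (35.2% and 45.1% of all genes), and 10 of 14 higher and 1 lower in monocyte-derived cells (33.9% and 43.5%). The higher genes of macrophages included Ctss, the cathepsin that trims the invariant chain (log2 fold change 7.76, SE 0.18), Cd86, a costimulator (7.58, SE 0.17), and March1, which sends class II to degradation (6.84, SE 0.17). Cd86, March1 and H2-DMb2 did not pass the filter on low counts between MALP-type and osteoblast-type cells. They entered the comparisons with mesenchymal cells through the myeloid cells, so their direction was set beforehand. The counts and medians of the list include them. Between monocyte-derived cells and macrophages, 2 of 12 were higher, March1 (1.74, SE 0.23, edgeR adjusted p = 0.00012) and Cd86 (0.86, SE 0.23, adjusted p = 0.022), and Ctsl was lower (-0.89, SE 0.17, adjusted p = 0.0033), where 6.5% of all genes were called higher and 4.65% lower. Ctss was at 0.14 (SE 0.25, adjusted p = 0.79), and the list median was 0.23 against 3.47 for the members and -0.02 for all genes. Under the gates with F13a1, 5 of 10 pathway genes were higher (Cd86, Creb1, Ctss, Lgmn and Cd40) and Rfxap and Ctsl lower, against 27% and 26.6% of all genes, with Ctss at 0.32 (SE 0.10, edgeR adjusted p = 0.0077); March1 could not be tested.

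Genes of interferon-γ signalling and of the class I pathway were read in the same comparison. In monocyte-derived cells against macrophages, Jak2, a kinase of the interferon-γ receptor, was higher (0.83, SE 0.18, edgeR adjusted p = 0.0066), while Ifngr1, Ifngr2, Jak1, Irf1 and Irf8 were not called, at -0.13 to 0.31. Of the 9 class I genes, 6 were higher and none lower, against 6.5% and 4.65% of all genes, with a median of 0.78 against -0.02 for all genes; they included the immunoproteasome subunit Psmb9 (1.29, SE 0.19), the peptide transporter gene Tap1 (1.26, SE 0.23) and B2m (0.73, SE 0.17). Where F13a1 was kept in the gates, 7 of the 8 that could be tested were higher and none lower, with Psmb9 at 0.74, Tap1 at 0.64 and B2m at 0.83, and Jak2 at 0.67 (all called). In macrophages against mesenchymal cells, Irf8, a transcription factor of myeloid cells (6.91, SE 0.08), Irf1 (2.28), Ifngr2 (1.81), Ifngr1 (1.17) and Jak1 (0.44) were higher and Jak2 was lower (-0.98, SE 0.06). Of the class I genes, 3 were higher and 4 lower (3 and 5 under the gates with F13a1), against 38.5% and 46.8% of all genes, with H2-K1 at -0.66 (SE 0.09) and B2m at -0.78 (SE 0.08).

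In the MALP-type against the osteoblast-type, where H2-Ab1 was lower, 6 of 9 class I genes were higher and 1 lower (median 0.88 against 0.02 for all genes), where 41.7% of all genes were called higher and 39.2% lower. The higher genes included Nlrc5, the class I transactivator (1.31, SE 0.09), and Psmb8 (1.46, SE 0.10). Of the interferon-γ genes given here, the receptor chain genes Ifngr1 (1.47, SE 0.05) and Ifngr2 (0.45) and Irf1 (0.35) were higher, Jak2 was lower (-1.78, SE 0.07), and Jak1 and Irf8 were not called. Of the 12 pathway genes tested, 3 were higher and 5 lower, with Rfxap, an RFX subunit, at -1.80 (SE 0.10) and Rfx5 at 0.71 (SE 0.09). In B-lineage against mesenchymal cells, 3 of 12 pathway genes were higher and 1 lower, where 13.6% of all genes were called higher and 23.8% lower, with Cd40 at 4.74 (SE 0.52) and Ctsl at -2.16 (SE 0.22).

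The genes most like the class II level were picked by the correlation of log2(UMIs per 10,000 + 0.1) with the mean of H2-Aa, H2-Ab1, H2-Eb1 and Cd74 on that scale. Over 64 sums of a pool and class, which share libraries and depth, they were Gbp7 (r = 0.787), Naaa (0.783), Ccl8 (0.776), Rnase2a (0.776) and Gbp2 (0.776) among 2921 candidates. Gate markers were left out of the candidates, but genes related to them were not, such as Ear1 (r = 0.681) beside the marker Ear2. The sums mix classes, so a gene tied to the monocyte-derived gate can rank high for that reason alone. Gbp7 and Gbp2 are guanylate-binding proteins, and Ccl8 is a chemokine that averaged 18.1 UMIs per 10,000 in monocyte-derived cells and 1.26 in macrophages. Within macrophages (16 pools) the most like were Chil3 (r = 0.954), F10 (0.930) and Gbp7 (0.915). Chil3, a chitinase-like protein of myeloid cells, averaged 43.1 in monocyte-derived cells and 0.849 in macrophages. Within monocyte-derived cells (8 pools) they were Hmgn5 (0.974), Calr (0.964), the chaperone calreticulin, and Psmb8 (0.951).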

How the data were processed

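Per the labels and the file headers, cells were released from mineralizing cultures and counted with droplet libraries; the authors aligned and counted reads with Cell Ranger 5.0.0 on mm10, per the submitters' processing notes, and deposited whole-number UMI counts per gene and barcode, not normalized. The deposited counts carry no cell type or mouse labels. The 7 members, the gene lists and the comparisons were chosen with earlier results of these data known.

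Cells were kept with 400 to 6200 genes and at most 10% mitochondrial, 20% Rpl and 15% Rps UMIs; droplets with the highest doublet scores (2 simulated doublets per droplet, 30 components of 2000 genes) were removed, 0.8% per 1000 barcodes. Classes were gated on sums of marker UMIs per 10,000 in cells of at least 1000 UMIs, with thresholds set on marker sums alone. F13a1 (monocyte-derived list) and Spp1 (lipid-type list) were dropped after those sums had been seen, so tests of the monocyte-derived class rest on a gate trimmed after the data were seen. Cells outside every gate (34.1%) were left out of levels. Text names the 7 members, 3 gene lists and the genes of highest correlation with class II; some results of the interferon-γ list are not reported here.

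Counts were summed per pool and class (at least 20 cells; 10 where fewer than 3 pools had 20) and tested with edgeR 4.0.16 under R 4.3.3 (filterByExpr filter, TMM factors, quasi-likelihood F test with a pool term; SE is the fold change over the root of F) at a Benjamini-Hochberg adjusted p of 0.05, with DESeq2 1.42.0 as an alternative. Pairing comes from the shared library and mice of a pool; deviations of same-numbered pools correlated at 0.0349 or more, with medians of 0.0744 to 0.297, against medians of -0.0529 to -0.0116 for different pools. Tested on simulated data with 200 genes changed by a log2 of 1, the test recovered 94% (13011 genes) for macrophage against mesenchymal cells, 58.5% (12430 genes) for monocyte-derived against mesenchymal, 14.5% (13169 genes) for B-lineage against mesenchymal and 75.5% (8661 genes) for monocyte-derived against macrophage, so smaller changes in B-lineage cells could be missed. The simulated counts had the same fixed dispersion for all genes and no pool differences. The recovery therefore does not hold for genes that vary more over pools, as class II genes did in macrophages. Relations over 16 pools used 100000 permutations, those over 8 pools exact enumeration. Shares were compared after thinning to 2000 UMIs, which left out shallower cells (7977 of 8993 macrophages, 770 of 797 monocyte-derived, 193 of 195 B-lineage and 40156 of 42934 mesenchymal cells kept). Intervals and floors cover counting error only.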

Additional observations from a re-analysis of the deposited data

Results flagged for a closer look

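Among 26 groups of 4 to 8 pools tested for a single value far from the rest, 4 had one, where chance gives about 1 in 20 groups. In monocyte-derived cells, H2-Aa in pool 8 was at 44.7 UMIs per 10,000 and the next pool at 22.0; pool 8 also held 304 of the 831 cells of this class. In the same class the H2-Ab1 to H2-Aa ratio was 1.01 in pool 12 and 0.760 in the next pool. In B-lineage cells, H2-Ab1 in pool 10 was at 1.20 and in the next pool at 0.873, and the H2-Ab1 to H2-Aa ratio in pool 12 was 6.75 against 2.24 in the next.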

How the results depend on the processing

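The second run, no doublet removal and no filter on low counts changed no call of a member that had passed the filter and could be tested under them, in 37, 38 and 38 cases. Without the replicate block of the pool no member call changed in 38 of 38 cases, and the genes called were 10833 in place of 11101 for macrophage against mesenchymal, 8643 in place of 8102 for monocyte-derived against mesenchymal, 4931 in place of 4925 for B-lineage against mesenchymal, 1042 in place of 966 for monocyte-derived against macrophage, 1315 in place of 1365 for B-lineage against monocyte-derived, 2519 in place of 2786 for resident-type against lipid-type and 9424 in place of 9907 for MALP-type against osteoblast-type. Leaving out each of the 4 pools of B-lineage against mesenchymal gave 3815 to 4357 called genes and changed no member call.

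Counts of called genes moved more under other settings. For B-lineage against mesenchymal, 8293 were called without TMM. For monocyte-derived against macrophage, 1483 were called with no filter, 330 with marker sums 2 times as high (4 pools), 340 with at least 50 cells (4 pools), 508 without pools 5 and 6 and 3745 with F13a1 and Spp1 in the gates (16 pools). For B-lineage against monocyte-derived, 3163 were called with no filter and 2579 with F13a1 in the gates (4 pools with at least 20 cells, 2 of them among the 6 pools at 10 cells). For resident-type against lipid-type, 205 were called with marker sums 2 times as high and 50 with F13a1 and Spp1 in the gates in place of 2786, each over 2 pools with at least 10 cells (1818 and 1659 genes tested). F13a1 and Spp1 entered together there, and their parts cannot be told apart. Of the pool relations 15 passed, and 8 with marker sums 2 times as high, where 4 pools had monocyte-derived cells. Leaving out pools 5 and 6, leaving out pool 8 and the gates with F13a1 and Spp1 were chosen after seeing the data. The cause was not tested, except that fewer pools or genes entered where so stated.

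Member results that turned direction and were called on at least 1 side were H2-DMa in MALP-type against osteoblast-type (0.51 without TMM) and, with F13a1 in the gates, H2-Ab1 (0.31) and H2-Eb1 (0.36) in B-lineage against monocyte-derived. Among results called on neither side, H2-DMa in B-lineage against mesenchymal turned to -0.11 without TMM and -0.03 without pool 6, and H2-Ab1 in macrophage against mesenchymal to 0.88 without the replicate block of the pool. Without TMM, monocyte-derived against macrophage gave 375 higher and 650 lower calls in place of 563 and 403, resident-type against lipid-type 1100 and 1784 in place of 1433 and 1353, and MALP-type against osteoblast-type 9046 and 2049 in place of 5104 and 4803. At least 50 cells could not be had for the B-lineage comparisons.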
